A study of Homo sapiens with 8 samples.

Results

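The subunits of oxidative phosphorylation (OXPHOS) were followed at the RNA level in human embryonic stem cells (hESCs) treated with anti-M8nAb, a neutralizing antibody against the secreted protein MFGE-8. Members were taken by gene symbol: NDUFA, NDUFB, NDUFC, NDUFS and NDUFV genes, SDHA to SDHD, the UQCR genes with CYC1, the ubiquitous COX isoforms, the ATP5F1, ATP5M and ATP5P genes, and the mitochondrially encoded MT-ND, MT-CO, MT-CYB and MT-ATP genes. This gave 92 genes of the 62086 in the tables, 79 in the nuclear genome and 13 in mitochondrial DNA, by a rule that used symbols alone. The hESC line was BG01, grown without feeder cells in mTeSR medium. The groups were anti-M8nAb for 12 h, IgG for 12 h, anti-M8nAb for 24 h and IgG for 24 h, with both antibodies at 5 µg/mL and 2 libraries in each group, 8 in all. The IgG was normal mouse IgG, the isotype control, and no group was left without an antibody. BG01 is a single line, and the labels call the 2 libraries of a group biological replicates without saying how they were made, so that the p-values measure only the spread between these libraries.

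OXPHOS takes electrons from NADH and succinate through complexes I to IV to oxygen, pumps protons across the inner mitochondrial membrane on the way, and lets complex V (ATP synthase) make ATP from the gradient. Complexes I, III, IV and V each combine subunits made in the cytosol from nuclear genes with a membrane part translated inside the organelle from mitochondrial DNA, whereas complex II is wholly nuclear. The mitochondrial subunits are transcribed as long precursors from which the tRNAs between them are cut out. Pluripotent stem cells are known for a high glycolytic flux beside their respiration.

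The libraries held between 21010400 and 21792716 counts over genes. Values are given per library as CPM (counts scaled to a common library size, after TMM), and comparisons come from edgeR's quasi-likelihood F test on all 8 libraries over 20165 genes, with p-values adjusted over all of them and a call at an adjusted p under 0.05. All 12 markers of pluripotent cells were tested, with POU5F1 between 1309 and 1570.1 CPM, whereas DCN, LUM and FAP of the fibroblast list were below the filter on low counts. Of these 12 markers 9 were called higher at 12 h, with 0 lower, while at 24 h 4 were higher, with 3 lower. Those lower at 24 h were NANOG, SOX2 and ZFP42, whereas POU5F1, DPPA4 and LIN28B were among those higher. The log2 fold changes of the 12 at 24 h lay between -0.48 and 0.32. Of the markers of other cell types tested, 4 of 5 for neuroectoderm summed to 235 to 261 CPM with anti-M8nAb at 24 h, against 170.1 to 178 CPM with IgG, nearly all of it NES. The 3 of 6 tested for endoderm summed to 7.65 to 7.79 CPM, against 3.96 to 5.77 CPM, the 2 of 6 for trophoblast to 17.4 to 19.0 CPM, against 19.9 to 20.7 CPM, and the 5 of 8 for fibroblasts, mostly THY1, to 707 to 732 CPM, against 608 to 629.5 CPM. Within these lists FOXA2 (-2.03) and COL1A2 (-1.09) fell at 24 h, while CXCR4 (1.97), GATA3 (2.91), LHX2 (1.92), NES (0.50), PDGFRB (0.68) and THY1 (0.33) rose. At 12 h the neuroectoderm sum was 201 to 220.4 CPM with anti-M8nAb, against 179.9 to 183 CPM with IgG, with all 4 genes called higher and 3 of them by over 1 on the log2 scale. The sums at 12 h were 6.13 to 8.49 CPM, against 3.92 to 4.78 CPM, for endoderm, 15.7 to 15.8 CPM, against 18.5 to 20.01 CPM, for trophoblast and 570.4 to 608 CPM, against 528.9 to 529.4 CPM, for fibroblasts. Their part in the results on OXPHOS subunits was not tested. In bulk RNA, fewer cells of a type and less RNA per cell cannot be told apart.

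Promoters of 3 nuclear members are shown because these genes carry the main nuclear findings: NDUFS1 fell at both times, NDUFS6 rose at both times, and NDUFV2 rose at 24 h. RefSeq windows on GRCh38.p14 run from 250 bases before to 50 bases after a transcription start, 5′ to 3′ on the strand of the gene, and capitals mark exact matches to the motifs searched.
NDUFS1, chr2:206159395-206159694, minus strand, 1 of its 2 windows: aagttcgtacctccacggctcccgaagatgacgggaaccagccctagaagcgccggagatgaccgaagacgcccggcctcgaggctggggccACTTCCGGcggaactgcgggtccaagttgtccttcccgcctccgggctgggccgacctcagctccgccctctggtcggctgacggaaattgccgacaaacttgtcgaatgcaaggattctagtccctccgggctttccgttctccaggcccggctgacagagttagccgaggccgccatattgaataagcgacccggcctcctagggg
NDUFS6, chr5:1801157-1801456, plus strand: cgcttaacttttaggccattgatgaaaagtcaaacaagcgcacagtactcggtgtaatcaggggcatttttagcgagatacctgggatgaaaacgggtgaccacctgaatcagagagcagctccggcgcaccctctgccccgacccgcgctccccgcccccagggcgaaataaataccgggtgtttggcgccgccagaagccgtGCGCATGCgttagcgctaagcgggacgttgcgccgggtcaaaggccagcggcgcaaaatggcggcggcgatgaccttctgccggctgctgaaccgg
NDUFV2, chr18:9102449-9102748, plus strand: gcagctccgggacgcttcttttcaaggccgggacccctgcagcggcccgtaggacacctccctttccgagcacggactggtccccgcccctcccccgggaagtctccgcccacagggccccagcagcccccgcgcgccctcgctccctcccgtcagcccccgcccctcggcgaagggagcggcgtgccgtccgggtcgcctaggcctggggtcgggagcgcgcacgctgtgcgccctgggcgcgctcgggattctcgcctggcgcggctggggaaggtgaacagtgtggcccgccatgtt
The NDUFS1 window shown was picked from its 2 as the one with the most motif matches (the first if equal). The match in NDUFS1 is ACTTCCGG, the reverse complement of the ETS core CCGGAAGT that GABPA binds, and it begins 158 bases before the start. The match in NDUFS6 is GCGCATGC, an arm of the palindrome of the factor NRF1, and it begins 46 bases before the start. No motif was found in the NDUFV2 window.

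These motifs were looked for on both strands in the windows of all genes, together with AAGATGGC, a core of YY1 sites. The letters of GCGCATGC overlap those of its own reverse complement GCATGCGC in a full NRF1 site, and a window was counted once. RefSeq gave a window for 64 of the 79 nuclear members. GCGCATGC was in a window of 14 of the 64 (21.9%), against 3.68% of all 27305 genes with a window. CCGGAAGT was in 12 of the 64 (18.8%), against 4.95% of all genes, and AAGATGGC was also in 12 of the 64, against 3.52%. Of the nuclear members that rose at 24 h, 24 had a window and 7 of these held GCGCATGC. All 8 that fell at 24 h had a window, and 3 of these, ATP5F1C, ATP5PF and NDUFA5, held the same motif. NRF1, GABPA and YY1 bind such sites in OXPHOS promoters in general, and no binding was measured here.

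The 13 mitochondrially encoded subunits together held 1.47 and 1.46% of gene counts with anti-M8nAb at 12 h, against 1.43 and 1.41% with IgG. At 24 h they held 1.26 and 1.29% with anti-M8nAb, against 1.44 and 1.48% with IgG, and the groups did not overlap at either time. The ratio of the group means, anti-M8nAb over IgG, was 1.03 at 12 h and 0.873 at 24 h. The 79 nuclear subunits held 0.909 and 0.949% with anti-M8nAb at 12 h, against 0.921 and 0.915% with IgG. At 24 h their share was 0.869 and 0.912% with anti-M8nAb, against 0.887 and 0.904% with IgG, with overlapping groups and a ratio of 0.994. Within a library, mitochondrially encoded counts were 1.45 and 1.41 times the nuclear ones with anti-M8nAb at 24 h, against 1.62 and 1.64 times with IgG, a ratio that does not depend on scaling. At 12 h the ratios overlapped, with 1.61 and 1.54 with anti-M8nAb, against 1.55 and 1.54 with IgG. The shares and ratios are a description, and no test was run on them.

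**Figure D1:**
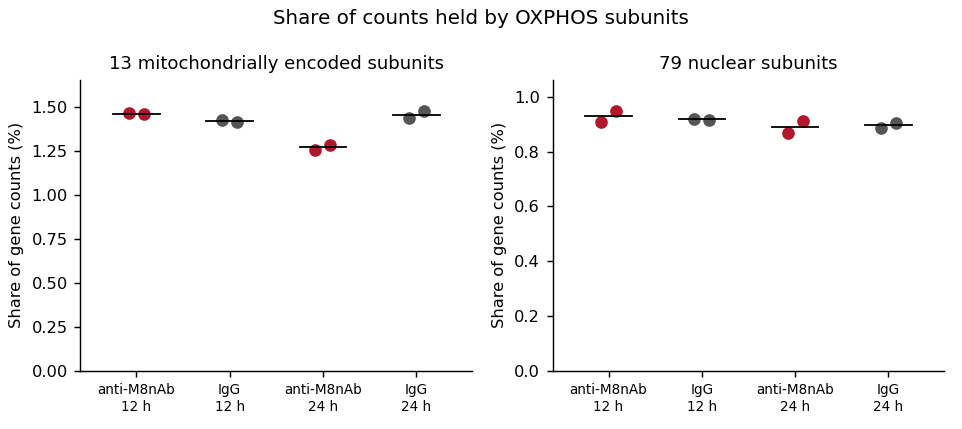
Share of gene counts (%) held by the 13 mitochondrially encoded subunits (left) and the 79 nuclear subunits (right), 1 point per library and a line at the mean of each group, with anti-M8nAb in red and IgG in grey. The mitochondrially encoded share lay at 1.26 and 1.29% with anti-M8nAb at 24 h, below all 6 other libraries, and the nuclear shares overlapped.

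Per length, mitochondrially encoded subunits were the more abundant, with a median of 1008 FPKM over the 13 genes (MT-ATP8 294.6 to MT-CO1 2056) against 27.4 FPKM over the 79 nuclear genes. The authors removed duplicate reads before counting. After that step MT-CO1 still held 43.9 counts per base of gene on average and MT-ND1 21.6, and how far this step lowered the levels or changes of such dense genes was not tested. Among nuclear members the most abundant per length were ATP5F1B, the catalytic beta subunit of ATP synthase (528 FPKM), NDUFS5 (330.0 FPKM), UQCRH (202.9 FPKM), COX8A (192.8 FPKM) and SDHC (45.9 FPKM) in complexes V, I, III, IV and II. The length is that of all annotated exons of a gene, 2238 bases for ATP5F1B, 10908 for ATP5F1A and 494 for COX8A. How far it shaped these levels and ranks was not tested. ATP5F1B had 1208 and 1262 CPM with anti-M8nAb at 12 h, against 1197 and 1232 CPM with IgG, and 1126 and 1172 CPM at 24 h, against 1135 and 1133 CPM. It was not called at either time (log2 fold changes 0.02 and 0.02). NDUFS5, UQCRH and COX8A were not called either, with values of 0.04, 0.06 and 0.04 on the log2 scale at 12 h and 0.05, 0.11 and 0.14 at 24 h.

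At 24 h, 7 of the 13 mitochondrially encoded subunits fell with anti-M8nAb and 1 rose, with a median log2 fold change of -0.16. Over all genes tested at 24 h, 21.3% were called lower and 21.2% higher, with a median near 0 (0.003). Among genes with a mean of at least 10 CPM, 27.0% were called lower and 27.9% higher. At 12 h, 4 of the 13 rose and 2 fell, with a median of 0.09, when 15.8% of all genes were called higher and 16.4% lower (21.0% and 21.4% of genes with at least 10 CPM). The 7 that fell at 24 h were called without each of the 8 libraries in turn, but for MT-ND6.

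The largest falls of mitochondrially encoded subunits at 24 h were in MT-ND1 and MT-ND2, membrane-arm subunits of complex I that are encoded next to each other, after the rRNA genes (chrM:3307-4262 and chrM:4470-5511 on GRCh38). MT-ND1 had 727 and 714 CPM with anti-M8nAb at 24 h, against 1099.8 and 1139.8 CPM with IgG (log2 fold change -0.64, SE 0.045, adjusted p = 5.1e-16). At 12 h it had 903 and 982 CPM with anti-M8nAb, against 1071 and 1053 CPM with IgG (log2 fold change -0.17, SE 0.045, adjusted p = 0.0022). Both anti-M8nAb libraries were thus below both IgG libraries at each time. MT-ND2 had 601 and 633 CPM with anti-M8nAb at 24 h, against 908 and 943 CPM with IgG (log2 fold change -0.58, SE 0.044, adjusted p = 5.42e-15). Its values at 12 h were 802 and 800.0 CPM, against 889.7 and 878 CPM (log2 fold change -0.14, SE 0.044, adjusted p = 0.0107). The falls at 12 h were small, and MT-ND1 lost its call there without anti-M8nAb replicate 1 (log2 fold change -0.11, adjusted p = 0.109) or IgG replicate 1 (log2 fold change -0.16, adjusted p = 0.064), and MT-ND2 without IgG replicate 1 (log2 fold change -0.13, adjusted p = 0.134) or IgG replicate 2 (log2 fold change -0.14, adjusted p = 0.0916).

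MT-CO1, the catalytic subunit of complex IV, is the next subunit along the genome and was higher with anti-M8nAb under TMM scaling. It had 3409 and 3511 CPM with anti-M8nAb at 12 h, against 2957 and 3015 CPM with IgG (log2 fold change 0.21, SE 0.037, adjusted p = 1.27e-05). At 24 h it had 3308 and 3298 CPM, against 2936 and 2991 CPM (log2 fold change 0.16, SE 0.037, adjusted p = 0.000596), a call that was lost with scaling by library totals (log2 fold change 0.07, adjusted p = 0.121) and with limma on log2(FPKM + 1) (log2 fold change 0.07, adjusted p = 0.111). The ratio of counts between the neighbours, chosen after their values were seen, needs no scaling between libraries. MT-ND1 over MT-CO1 was 0.220 and 0.217 with anti-M8nAb at 24 h, against 0.375 and 0.381 with IgG, and 0.265 and 0.280 with anti-M8nAb at 12 h, against 0.362 and 0.349 with IgG. For MT-ND2 over MT-CO1 the values were 0.182 and 0.192 with anti-M8nAb at 24 h, against 0.309 and 0.315 with IgG. The 2 groups did not overlap in any of these ratios.

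Of the other complex IV and complex III subunits, MT-CO3 and MT-CYB fell at 24 h. MT-CO3 had 858 and 868 CPM with anti-M8nAb at 24 h, against 989 and 1031 CPM with IgG (log2 fold change -0.23, SE 0.043, adjusted p = 2.68e-05), and was not called at 12 h (-0.03, adjusted p = 0.607). MT-CYB, the cytochrome b of complex III, had 1326 and 1382 CPM at 24 h, against 1523 and 1506 CPM (log2 fold change -0.16, SE 0.041, adjusted p = 0.00111), and was not called at 12 h (0.09, adjusted p = 0.102). MT-CO2, which receives electrons from cytochrome c, had 1173 and 1211 CPM with anti-M8nAb at 24 h, against 1188 and 1192 CPM with IgG (log2 fold change 0.00), and its groups overlapped. At 12 h its log2 fold change was 0.09 (adjusted p = 0.0872). Neither subunit of the ATP synthase membrane part was called at either time. MT-ATP6 had log2 fold changes of 0.02 at 12 h and -0.08 at 24 h, and MT-ATP8, whose reading frame overlaps that of MT-ATP6 over 22.2% of its length, had -0.11 and -0.04.

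Among the remaining membrane subunits of complex I, MT-ND5 and MT-ND3 fell at 24 h and were not called at 12 h, and the difference between the times was called for MT-ND5 but not for MT-ND3 (adjusted p = 0.142). MT-ND5 had 1072 and 1147 CPM with anti-M8nAb at 24 h, against 1331 and 1304 CPM with IgG (log2 fold change -0.25, SE 0.044, adjusted p = 8.32e-06), and a log2 fold change of 0.09 at 12 h. MT-ND3 had 165 and 155 CPM at 24 h, against 193 and 191 CPM (log2 fold change -0.26, SE 0.067, adjusted p = 0.00131), a call that DESeq2 did not make (adjusted p = 0.102). At 12 h MT-ND3 overlapped between groups, with 155 and 199 CPM with anti-M8nAb, against 181 and 185 CPM with IgG. MT-ND4 rose at 12 h, with 2413 and 2351 CPM with anti-M8nAb, against 2069 and 2050.2 CPM with IgG (log2 fold change 0.21, SE 0.041, adjusted p = 6.18e-05), and had a log2 fold change of 0.03 at 24 h. MT-ND4L, made from the same transcript as MT-ND4, had 245 and 196 CPM at 12 h, against 188 and 187 CPM (log2 fold change 0.23, SE 0.063, adjusted p = 0.00347). That call rested on anti-M8nAb replicate 1, without which it was lost (log2 fold change 0.07, adjusted p = 0.54), and at 24 h the log2 fold change was -0.04.

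MT-ND6 is the 1 member on the opposite strand of mitochondrial DNA (chrM:14149-14673, minus strand). It had 649 and 434 CPM with anti-M8nAb at 12 h, against 373 and 362 CPM with IgG (log2 fold change 0.56, SE 0.08, adjusted p = 2.52e-07). The 2 anti-M8nAb libraries were far apart here, and without replicate 1 the rise was smaller (log2 fold change 0.24, adjusted p = 0.000777). At 24 h it had 356 and 369.8 CPM with anti-M8nAb, against 462 and 419 CPM with IgG (log2 fold change -0.28, SE 0.08, adjusted p = 0.0038). The fall was not called by DESeq2 (adjusted p = 0.313) or without IgG replicate 1 (log2 fold change -0.22, adjusted p = 0.138). Whether reads were counted by strand is not given in the sources used here, and unstranded counts of MT-ND6 take in precursor RNA read from the other strand.

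**Figure D2:**
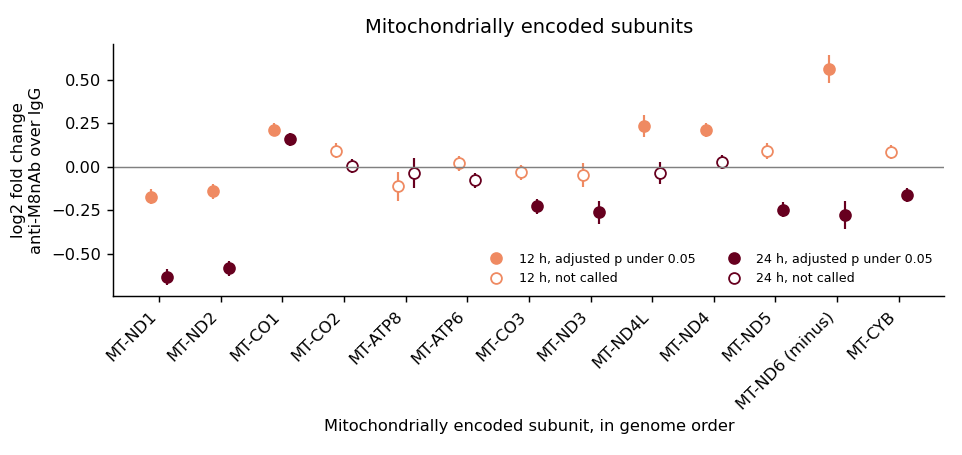
Log2 fold change of anti-M8nAb over IgG for the 13 mitochondrially encoded subunits in genome order, at 12 h (orange) and 24 h (dark red), with bars of 1 standard error and filled points at an adjusted p under 0.05; MT-ND6 lies on the minus strand. MT-ND1 and MT-ND2 reached -0.64 and -0.58 at 24 h, while MT-CO1 was positive at both times (its call at 24 h was lost with scaling by library totals).

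The response at 24 h was tested against that at 12 h. Of the 13 mitochondrially encoded subunits 8 had a lower response at 24 h and 0 a higher one at an adjusted p under 0.05, when 6.54% of all genes were called lower and 5.79% higher. The differences were -0.84 for MT-ND6 (adjusted p = 4.45e-07), -0.46 for MT-ND1 (adjusted p = 6.04e-07), -0.44 for MT-ND2 (adjusted p = 1.25e-06), -0.34 for MT-ND5 (adjusted p = 0.000109) and -0.25 for MT-CYB (adjusted p = 0.00218) on the log2 scale. These 5 were called without each library in turn. MT-ND4L (-0.27, adjusted p = 0.0366), MT-ND4 (-0.18, adjusted p = 0.0285) and MT-CO3 (-0.19, adjusted p = 0.0262) lost the call without 6, 5 and 6 of the 8 libraries, with adjusted p up to 0.552 for MT-ND4L (without anti-M8nAb 12 h replicate 1), 0.154 for MT-ND4 (without anti-M8nAb 24 h replicate 1) and 0.144 for MT-CO3 (without IgG 12 h replicate 2). Of the 78 nuclear subunits tested, NDUFV2 alone was called (difference 0.56, adjusted p = 0.0456), and it lost the call without each library other than anti-M8nAb 12 h replicate 2, with adjusted p between 0.0611 and 0.304.

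Of the 79 nuclear subunits 78 were tested, and at 24 h 28 of them (35.9%) rose and 8 (10.3%) fell with anti-M8nAb, against 21.2% and 21.3% of all genes and 27.9% and 27.0% of those with at least 10 CPM, as 77 of the 78 have. At 12 h 12 (15.4%) rose and 2 (2.56%) fell, against 15.8% and 16.4% of all genes and 21.0% and 21.4% of those with at least 10 CPM. Single libraries moved these counts. At 24 h 15 rose without anti-M8nAb replicate 2 and 17 without IgG replicate 1, and 1 fell without anti-M8nAb replicate 1. At 12 h 4 rose without IgG replicate 2, 6 without IgG replicate 1 and 6 without anti-M8nAb replicate 2, and 1 fell without any 1 of the 4 libraries of that time. None passed a log2 fold change of 1 in size, the fold the study required. The medians of the 78 log2 fold changes were 0.08 at 12 h and 0.09 at 24 h.

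Scaling decided how these small rises were called. TMM factors were 0.966 to 0.979 in the anti-M8nAb libraries and 1.01 to 1.04 in the IgG libraries. With library totals and no TMM factors, an alternative chosen after seeing the data, 10 nuclear subunits were called higher at 24 h and 15 lower, with a median of 0.004, and at 12 h 7 were higher and 3 lower. All genes then split into 3209 higher and 5510 lower at 24 h, against 4270 higher and 4296 lower with TMM. At 24 h NDUFS1, NDUFV2, NDUFS6, SDHC and COX7C were among those called under both, and 8 mitochondrially encoded subunits fell without TMM, against 7 with it.

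All 12 nuclear subunits that rose at 12 h also rose at 24 h, where they were 42.9% of those that rose. Of all genes called higher at 12 h 63.6% were also called higher at 24 h (71.0% of those with at least 10 CPM), where they were 47.6% of those called (53.4%). They were NDUFA10, NDUFA13, NDUFB2, NDUFB9, NDUFS6 and NDUFS7 of complex I, UQCR10 of complex III, COX4I1 and COX7C of complex IV, and ATP5F1A, ATP5MC2 and ATP5MF of complex V. NDUFS1 was called lower at both times. The 2 comparisons share no libraries, but share the estimate of the spread, and several of these calls were lost when 1 library was left out.

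**Figure D3:**
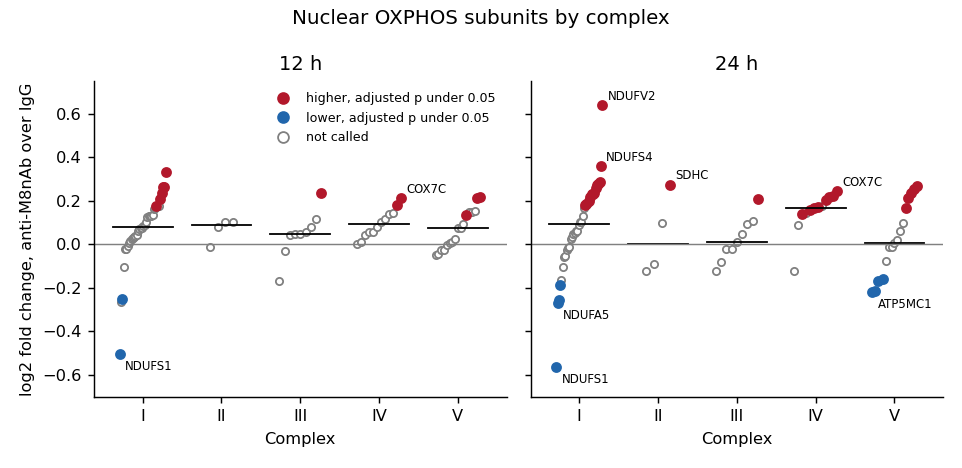
Log2 fold change of anti-M8nAb over IgG for the 78 nuclear subunits tested, by complex, at 12 h (left) and 24 h (right), 1 point per gene (red called higher, blue called lower, open not called), with a line at the median of each complex. With TMM scaling 28 rose and 8 fell at 24 h (10 and 15 with library totals); NDUFS1 was the lowest point at both times.

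Complex I, which holds 36 of the 78 nuclear subunits tested, supplied the largest nuclear changes in both directions. Of its 36 nuclear subunits 13 (36.1%) rose and 4 (11.1%) fell at 24 h, against 27.9% and 27.0% of genes with at least 10 CPM. At 12 h 6 (16.7%) rose and 2 (5.56%) fell, against 21.0% and 21.4% of such genes. NDUFS1 carries iron-sulphur clusters in the arm that accepts electrons from NADH (chr2:206114817-206159509, minus strand). It had 80.2 and 75.8 CPM with anti-M8nAb at 12 h, against 111 and 110.3 CPM with IgG (log2 fold change -0.50, SE 0.066, adjusted p = 4.85e-08). At 24 h it had 72.0 and 69.4 CPM, against 109.9 and 98.7 CPM (log2 fold change -0.56, SE 0.067, adjusted p = 2.54e-09). It was called lower at both times under all 20 alternative settings, with log2 fold changes between -0.65 and -0.46. Of its exon sequence, 11.6% overlaps a gene on the other strand.

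NDUFV2, the partner iron-sulphur subunit in the same arm, rose at 24 h. It had 17.8 and 18.2 CPM with anti-M8nAb, against 12.2 and 10.9 CPM with IgG (log2 fold change 0.64, SE 0.13, adjusted p = 0.00012). Its values at 12 h overlapped, with 12.2 and 16.6 CPM with anti-M8nAb, against 12.9 and 14.3 CPM with IgG. Another gene annotated on the same strand shares 28.4% of its exon sequence, and the counting could have split reads between them. Among the other nuclear core subunits, NDUFV1, which binds the flavin that oxidizes NADH, and NDUFS7 rose at 24 h by 0.18 and 0.28 on the log2 scale. Of the exon sequence of NDUFS7, 51.4% overlaps genes on the other strand. The count ratio of NDUFS1 to NDUFV1, chosen after the values were seen, was 0.561 and 0.546 with anti-M8nAb at 24 h, against 0.989 and 0.870 with IgG, and 0.709 and 0.614 with anti-M8nAb at 12 h, against 0.998 and 0.970 with IgG.

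Accessory subunits of complex I mostly rose where called. At 24 h 10 of 29 (34.5%) rose and 3 (10.3%) fell, against 27.9% and 27.0% of genes with at least 10 CPM. NDUFS6, a zinc-binding subunit, had 170.2 and 175 CPM with anti-M8nAb at 12 h, against 150.2 and 143 CPM with IgG (log2 fold change 0.24, SE 0.06, adjusted p = 0.00183), and 165 and 169 CPM at 24 h, against 130.2 and 149 CPM (log2 fold change 0.26, SE 0.06, adjusted p = 0.000485). Its calls were narrowly lost without IgG replicate 2 at 12 h (adjusted p = 0.0554) and IgG replicate 1 at 24 h (adjusted p = 0.0542). NDUFS4 had 44.5 and 53.5 CPM with anti-M8nAb at 24 h, against 38.5 and 37.8 CPM with IgG (log2 fold change 0.36, SE 0.087, adjusted p = 0.000712), a call lost without anti-M8nAb replicate 2 (log2 fold change 0.22, adjusted p = 0.0908). NDUFB2, of the membrane arm, rose at 12 h (0.26, adjusted p = 0.00417) and 24 h (0.29, adjusted p = 0.00118), and 35.1% of its exon sequence overlaps genes on the other strand. NDUFA13, also known as GRIM-19, shares 21% of its exon sequence with genes on the same strand. It rose at 12 h (0.33, adjusted p = 0.00506) and, near the threshold, at 24 h (0.23, adjusted p = 0.0392). At 12 h both lost the call without anti-M8nAb replicate 2 (NDUFB2 log2 fold change 0.16, adjusted p = 0.232, and NDUFA13 log2 fold change 0.21, adjusted p = 0.19), and NDUFB2 also without IgG replicate 1 and NDUFA13 without IgG replicate 2 (adjusted p = 0.054 and 0.0955). At 24 h NDUFA13 was not called without either IgG 12 h library, either anti-M8nAb 24 h library or IgG 24 h replicate 1 (adjusted p between 0.0567 and 0.36).

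NDUFA5 fell at 24 h, with 56.2 and 62.9 CPM with anti-M8nAb, against 73.2 and 70.3 CPM with IgG (log2 fold change -0.27, SE 0.074, adjusted p = 0.00261). NDUFV3, the small subunit beside NDUFV1 and NDUFV2, had 34.2 and 40.4 CPM, against 45.2 and 44.0 CPM (log2 fold change -0.26, SE 0.088, adjusted p = 0.0151). Without anti-M8nAb replicate 1 both lost the call (NDUFA5 log2 fold change -0.19, adjusted p = 0.0961, and NDUFV3 log2 fold change -0.14, adjusted p = 0.303), and NDUFV3 also without IgG replicate 1 (log2 fold change -0.25, adjusted p = 0.0622). NDUFA9 was called lower at 12 h (-0.25, adjusted p = 0.0434), but not when any of the 4 libraries of that time was left out (adjusted p between 0.0863 and 0.298), and at 24 h its log2 fold change was 0.10. The fourth nuclear complex I subunit called lower at 24 h, with NDUFS1, NDUFA5 and NDUFV3, was NDUFB10 (-0.19, adjusted p = 0.0245). NDUFA7 was the lowest tested subunit at 1.80 FPKM, and another gene on the same strand shares 32.5% of its exon sequence.

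Complex II, which oxidizes succinate, had 1 call among its 4 subunits. SDHC, a membrane anchor, had 95.4 and 96.4 CPM with anti-M8nAb at 24 h, against 80.3 and 78.3 CPM with IgG (log2 fold change 0.27, SE 0.064, adjusted p = 0.000494), and kept the call under all 20 alternative settings. At 12 h it had 94.1 and 97.8 CPM, against 89.5 and 89.3 CPM (log2 fold change 0.10, not called). SDHA, the flavoprotein that binds succinate, had log2 fold changes of 0.10 (SE 0.11) at 12 h and -0.12 (SE 0.10) at 24 h. For SDHB, the iron-sulphur subunit, they were 0.08 and 0.10, and for SDHD, the other anchor, -0.01 and -0.09, and none of these was called.

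In complex III, UQCR10 was the 1 of 9 nuclear subunits called at either time. Thus 11.1% were higher and 0% lower at each time. Of genes with at least 10 CPM, 21.0% were higher and 21.4% lower at 12 h, and 27.9% and 27.0% at 24 h. Of the exon sequence of UQCR10, 24.5% overlaps a gene on the other strand. This small subunit had 54.3 and 51.0 CPM with anti-M8nAb at 12 h, against 44.7 and 44.6 CPM with IgG (log2 fold change 0.24, SE 0.079, adjusted p = 0.0181), and 47.8 and 49.0 CPM at 24 h, against 41.8 and 42.1 CPM (log2 fold change 0.21, SE 0.08, adjusted p = 0.033). The call at 24 h was lost without any 1 of the 4 libraries of that time or the IgG 12 h libraries (adjusted p between 0.0551 and 0.138), and that at 12 h without anti-M8nAb replicate 1 or either IgG library (adjusted p between 0.088 and 0.182). The other 8 nuclear subunits, among them the catalytic CYC1 and UQCRFS1, had log2 fold changes between -0.17 and 0.12 at 12 h and between -0.12 and 0.11 at 24 h.

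Complex IV had the highest median of the nuclear groups at 24 h, 0.17. Of its 12 nuclear subunits 8 (66.7%) were higher and 0 lower, against 27.9% and 27.0% of genes with at least 10 CPM. COX7C had 251 and 273 CPM with anti-M8nAb at 12 h, against 225 and 227 CPM with IgG (log2 fold change 0.21, SE 0.053, adjusted p = 0.00158), and 253 and 266 CPM at 24 h, against 217 and 221 CPM (log2 fold change 0.24, SE 0.053, adjusted p = 0.000208). COX4I1, the regulatory subunit, rose at 12 h (0.18, adjusted p = 0.00592) and at 24 h (0.14, adjusted p = 0.0265). Without anti-M8nAb replicate 2 of the same time COX7C lost its call at 12 h (adjusted p = 0.0738) and COX4I1 at 24 h (adjusted p = 0.387), and COX4I1 also lost it at 24 h without IgG 24 h replicate 1 or either IgG 12 h library (adjusted p between 0.0585 and 0.171) and at 12 h without IgG replicate 1 (adjusted p = 0.0662). COX6A1 had 176 and 178 CPM with anti-M8nAb at 24 h, against 148 and 156 CPM with IgG (log2 fold change 0.22, SE 0.059, adjusted p = 0.00219). COX7A2L, which joins complexes III and IV into supercomplexes, rose at 24 h (0.22, adjusted p = 0.0036), but not without anti-M8nAb replicate 2 (log2 fold change 0.17, adjusted p = 0.0897). COX5B, COX6B1, COX7A2 and NDUFA4, an atypical member by name that belongs to complex IV, were the others that rose at 24 h, by 0.16 to 0.20. In 11 of the 12 genes the anti-M8nAb values all exceeded the IgG values at 24 h, as in 34.8% of all genes tested and 38.5% of those with at least 10 CPM, and COX7B was the exception (-0.12, adjusted p = 0.203). With library totals in place of TMM, COX6A1 and COX7A2L were at 0.13 each and COX4I1 at 0.05 at 24 h, and none of these 3 was called.

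Of the 17 nuclear subunits of ATP synthase tested, 5 (29.4%) were higher and 4 (23.5%) lower at 24 h. These are near the shares of genes with at least 10 CPM, 27.9% and 27.0%. At 12 h 3 (17.65%) rose and 0 fell, against 21.0% and 21.4% of such genes. ATP5F1A, the alpha subunit of the F1 head, had 824 and 837 CPM with anti-M8nAb at 24 h, against 736 and 743 CPM with IgG (log2 fold change 0.17, SE 0.044, adjusted p = 0.00174), and rose at 12 h as well (0.14, adjusted p = 0.015), a call lost without anti-M8nAb replicate 2, IgG replicate 1 or IgG replicate 2 (adjusted p between 0.051 and 0.158). ATP5F1C, the gamma subunit that turns inside the head, had 140.4 and 144 CPM with anti-M8nAb at 24 h, against 163 and 155 CPM with IgG (log2 fold change -0.16, SE 0.056, adjusted p = 0.0195), and was not called at 12 h. With library totals in place of TMM, ATP5F1A was not called at 24 h (log2 fold change 0.08, adjusted p = 0.135), while ATP5F1C was (log2 fold change -0.25, adjusted p = 0.000328).

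The c ring is made of 1 protein encoded by 3 genes. ATP5MC2 had 291 and 306 CPM with anti-M8nAb at 24 h, against 251 and 264 CPM with IgG (log2 fold change 0.21, SE 0.055, adjusted p = 0.0015), and rose at 12 h (0.22, adjusted p = 0.002), where the call was lost without anti-M8nAb replicate 2 (log2 fold change 0.12, adjusted p = 0.184) or IgG replicate 1 (log2 fold change 0.20, adjusted p = 0.0556). ATP5MC1 was called lower at 24 h (-0.22, adjusted p = 0.0327) and ATP5MC3 was not called (-0.08, adjusted p = 0.272). With library totals ATP5MC2 was not called at 24 h (adjusted p = 0.0628), and whether ATP5MC2 and ATP5MC1 differed from each other was not tested. In the peripheral stalk ATP5PF had 56.6 and 60.2 CPM with anti-M8nAb at 24 h, against 69.6 and 65.9 CPM with IgG (log2 fold change -0.22, SE 0.071, adjusted p = 0.0122), ATP5PB was lower (-0.17, adjusted p = 0.02) and ATP5PO was higher (0.25, adjusted p = 0.00877). Of the exon sequence of ATP5PF, 37.3% overlaps genes on the other strand. ATP5MF, a membrane subunit, rose at 12 h (0.21, adjusted p = 0.00523) and 24 h (0.24, adjusted p = 0.00118), calls lost without IgG replicate 2 at 12 h (adjusted p = 0.0619) and anti-M8nAb replicate 2 at 24 h (adjusted p = 0.0531). ATP5F1C, ATP5PB and ATP5PF were each not called without anti-M8nAb replicate 1 or without IgG replicate 1 at 24 h, with adjusted p between 0.0644 and 0.279.

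ATP5MGL was below the filter on low counts, with 3 and 0 counts with anti-M8nAb at 12 h, against 4 and 3 with IgG, and 2 and 0 at 24 h, against 6 and 4. It is the 1 member without a test.

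**Figure D4:**
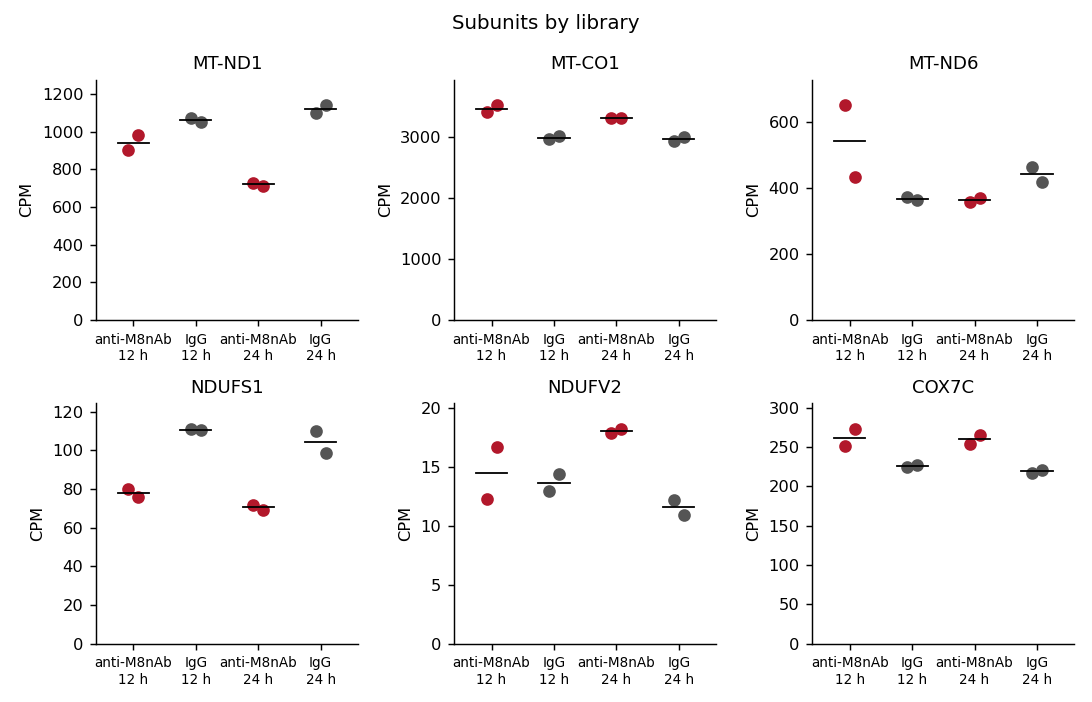
CPM after TMM scaling for MT-ND1, MT-CO1, MT-ND6, NDUFS1, NDUFV2 and COX7C, 1 point per library and a line at the group mean, with anti-M8nAb in red and IgG in grey. MT-ND1 and NDUFS1 were below IgG at both times, COX7C was above it, and the 2 anti-M8nAb libraries of MT-ND6 at 12 h were far apart (649 and 434 CPM).

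The genes that maintain mitochondrial DNA and process its RNA were tested as a list of 24. At 24 h 4 (16.7%) rose and 9 (37.5%) fell, against 21.2% and 21.3% of all genes. At 12 h 4 (16.7%) rose and 2 (8.33%) fell, against 15.8% and 16.4%. Of genes with at least 10 CPM, 27.9% rose and 27.0% fell at 24 h, and 21.0% and 21.4% at 12 h. The medians were -0.07 at 24 h and -0.01 at 12 h. TRMT10C, a subunit of the RNase P that cuts the 5′ end of mitochondrial tRNAs, had 35.2 and 37.3 CPM with anti-M8nAb at 24 h, against 73.5 and 67.8 CPM with IgG (log2 fold change -0.96, SE 0.077, adjusted p = 2.95e-14). FASTKD5, needed for the processing of precursors without tRNA at their ends, had 17.5 and 18.7 CPM, against 34.7 and 33.8 CPM (log2 fold change -0.92, SE 0.10, adjusted p = 1.92e-10). TWNK, the mitochondrial DNA helicase, fell at 24 h too (-0.59, adjusted p = 9.89e-09). None of these 3 was called at 12 h, and their responses differed between the times (adjusted p = 2.01e-07, 5.91e-06 and 1.76e-05). ELAC2, which cuts the 3′ end of the tRNAs, TBRG4 and HSD17B10 rose at 24 h by 0.30, 0.22 and 0.23. Whether any of these bears on the mitochondrially encoded subunits was not tested.

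Of the 24 other genes of mitochondrial DNA 9 were tested. At 24 h 5 (55.6%) fell and 2 (22.2%) rose, against 21.3% and 21.2% of all genes. MT-RNR2, the large rRNA, had 2447 and 2533 CPM with anti-M8nAb at 24 h, against 2281 and 2289 CPM with IgG (log2 fold change 0.12, SE 0.041, adjusted p = 0.0121), and MT-RNR1, the small rRNA, was not called (-0.04, adjusted p = 0.546). The rise of MT-RNR2 is a value under TMM scaling. Without TMM factors the 24 genes together held 0.291 and 0.301% of gene counts with anti-M8nAb at 24 h. With IgG they held 0.295 and 0.298%, and the groups overlapped. MT-TY, a tRNA gene between MT-ND2 and MT-CO1, had 16.2 and 14.6 CPM with anti-M8nAb at 24 h, against 43.4 and 39.9 CPM with IgG (log2 fold change -1.44, SE 0.10, adjusted p = 3e-16), and 26.3 and 27.6 CPM at 12 h, against 38.2 and 36.7 CPM (log2 fold change -0.47, SE 0.094, adjusted p = 9.4e-05). MT-TQ, between MT-ND1 and MT-ND2, had 0.730 and 0.438 CPM with anti-M8nAb at 24 h, against 4.0 and 2.95 CPM with IgG (log2 fold change -2.56, SE 0.40, adjusted p = 7.76e-07). Of the other tRNA genes tested, MT-TE was also called lower at 24 h, whereas MT-TP was called higher at 12 h and 24 h. At 12 h MT-TS1 was called higher and MT-TT lower. The strand of the tRNA genes was not compared with that of the subunits beside them. The counts of tRNA genes are low, and how much of them is read from precursors was not tested.

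Assembly factors of the complexes showed no common direction, with 14 of 50 higher and 8 lower at 24 h (median -0.03), and at 12 h 10 higher and 6 lower (median -0.01). UQCC2 and ECSIT, which assist complexes III and I, rose at both times, by 0.53 and 0.52 at 12 h and by 0.66 and 0.59 at 24 h. COX19, COA7 and SCO1, which serve complex IV, fell at 24 h by 0.85, 0.53 and 0.34 on the log2 scale, whereas COX20, which serves the same complex, rose by 0.47. TMEM70, which assists complex V, fell at 12 h (-0.26) and 24 h (-0.51).

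Of 12 regulators of nuclear OXPHOS genes 5 rose and 1 fell at 12 h, and 3 rose and 3 fell at 24 h. PPARGC1B, a coactivator of mitochondrial biogenesis, had 8.47 and 6.82 CPM with anti-M8nAb at 24 h, against 18.1 and 17.8 CPM with IgG (log2 fold change -1.23, SE 0.14, adjusted p = 1.58e-09), and fell at 12 h as well (-1.06, adjusted p = 2.49e-07). PPRC1, a related coactivator, fell at 24 h (-0.34, adjusted p = 7.12e-05), as did YY1 (-0.15, adjusted p = 0.0282). HIF1A, the oxygen-responsive factor, rose by 0.37 at 12 h and 0.65 at 24 h, and MYC by 0.90 and 0.78. NRF1 was not called (-0.14 and -0.11), and GABPA rose at 12 h (0.21, adjusted p = 0.0199).

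Copies of the members elsewhere in the genome were low. The 592 such pseudogenes together summed to 246 and 224 CPM, here without TMM factors, with anti-M8nAb at 12 h, against 211 and 210.3 with IgG, and 209 and 219.6 at 24 h, against 207 and 229. MTCO1P12, a nuclear copy of MT-CO1, had 52.1 and 54.0 CPM with anti-M8nAb at 24 h, against 36.9 and 35.1 CPM with IgG (0.56, adjusted p = 4.58e-06). MTND1P23 and MTND2P28, copies of MT-ND1 and MT-ND2, fell at 24 h (-1.06, adjusted p = 0.0318, and -0.79, adjusted p = 0.0124). The other copy called at 24 h was ATP5MC1P4, which rose (1.67, adjusted p = 0.00525) at a mean of 0.862 CPM, whereas ATP5MC1 fell. MTCO1P12, MTND1P23 and MTND2P28 had the sign of MT-CO1, MT-ND1 and MT-ND2, and how reads were divided between them was not tested.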

How the data were processed

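Total RNA of 8 libraries was sequenced. The authors used Trimmomatic for trimming, STAR in 2-pass mode for alignment to GRCh38.p14, Picard to remove duplicates and HTSeq for counting over Ensembl genes (the mode and strand setting are not given in the sources used here). The submitters' processing notes also name FastQC 0.11.9. The deposited counts are whole reads per gene, not normalized. The deposited FPKM values are those counts scaled by gene length and by the total over genes, which the authors made with RNAnorm. Each table lists 62086 gene identifiers, all paired with a symbol, and 4 columns that are not used here. Of 1005 lines with a blank gene name, 1000 held 0.192 to 0.21% of gene counts and the largest of the last 5 held 49.3 to 50.2% of all counts, and all were left out.

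The count model was edgeR 4.0.16 (R 4.3.3) after filterByExpr and TMM scaling. It held 4 group means, and two-sided quasi-likelihood F tests were adjusted by Benjamini-Hochberg over 20165 genes. Members and lists were chosen with earlier results of these data known. Every mitochondrially encoded subunit is named, and of the nuclear ones up to 3 in each direction with the smallest p for each complex and time, up to 2 in each direction for the difference between the times, all of complex II, the most abundant of each complex and those below the filter. Of the lists, up to 3 in each direction and time are named. Other names complete a group or were chosen after their values were seen. Alternatives were DESeq2 1.42.0 or its size factors, scaling without MT- genes, other filters, protein-coding genes alone, a replicate term, limma 3.58.1 on log2(FPKM + 1) or log2(FPKM + 0.1) with a mean of at least 0.5 FPKM or no filter, each time alone and each library left out, and library totals, added later. Overlaps between genes were taken from the GENCODE annotation of GRCh38. The result of 1 member is not reported here by name. The fit was tested on simulated data.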

Additional observations from a re-analysis of the deposited data

Results flagged for a closer look

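For 9 members the response to anti-M8nAb at 24 h differed from that at 12 h by the test of the difference itself (edgeR, adjusted p under 0.05). The differences, the log2 fold change at 24 h minus that at 12 h, were -0.46 for MT-ND1, -0.44 for MT-ND2, -0.18 for MT-ND4, -0.27 for MT-ND4L, -0.34 for MT-ND5, -0.84 for MT-ND6, -0.25 for MT-CYB, -0.19 for MT-CO3 and 0.56 for NDUFV2. MT-ND6 moved in opposite directions at the 2 times, with log2 fold changes of 0.56 at 12 h and -0.28 at 24 h, and without anti-M8nAb 12 h replicate 1 the difference was -0.52 (adjusted p = 2.2e-08). For NDUFV2 the difference without the same library was 0.35 (adjusted p = 0.304).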

How the results depend on the processing

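Each of the 73 calls of single members in the 3 comparisons kept its sign under every alternative run, and 8 kept their call under all: MT-ND1, MT-ND2, MT-ND5, MT-CO3, MT-CYB and SDHC at 24 h, and NDUFS1 at both times. The counts of members called in all, 16 higher with 4 lower at 12 h and 29 higher with 15 lower at 24 h, depended on scaling and on the test. With limma on log2(FPKM + 1), 3 were higher at 12 h and 5 at 24 h, with a pseudocount of 0.1 also 3 and 5, and with no filter on low values 1 and 1, with 1 lower at 12 h. With library totals and no TMM factors, chosen after seeing the data, 10 were higher at 24 h and 23 lower. None passed a log2 fold change of 1 in size, 0 in each direction at each time. Median log2 fold changes moved to 0.0149 (12 h) and 0.00353 (24 h) for nuclear and 0.0255 and -0.249 for mitochondrially encoded members with library totals, and to 0.0141, 0.000904, 0.0256 and -0.249 with limma on log2(FPKM + 1).

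For the difference between the times, with 1 member higher and 8 lower, the number higher was 0 with library totals, no filter on low counts, DESeq2 and each of the 3 fits on FPKM. The number lower was 5 with no filter, 5 with either pseudocount on FPKM, and 0 with FPKM and no filter.

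Leaving out 1 library at a time gave 8 to 20 members higher at 12 h (1 to 5 lower), 16 to 28 at 24 h (8 to 15 lower) and 0 to 1 for the difference (5 to 8 lower). For nuclear members alone it gave 4 to 15 higher and 1 to 2 lower at 12 h, and at 24 h 15 to 27 higher and 1 to 8 lower. The lowest counts came without IgG 12 h replicate 2 (8 higher) and anti-M8nAb 24 h replicate 2 (16 higher). The nuclear median lay between 0.0612 and 0.0984 at 12 h and between 0.0431 and 0.126 at 24 h, and the mitochondrially encoded median between 0.0665 and 0.10 at 12 h and between -0.191 and -0.131 at 24 h.

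Differences between replicates 1 and 2 correlated by -0.003 (12 h) and -0.02 (24 h) between anti-M8nAb and IgG over all genes tested. Genes of low counts are among these, and the values do not show how the replicates were made. With a replicate block, 16 members were higher and 4 lower at 12 h, 28 and 15 at 24 h, and 1 and 8 for the difference. With 2 libraries a group and a common coefficient of variation of 5.53%, 64 of the 78 nuclear members tested were not called at 12 h and 42 at 24 h, which does not show that they were unchanged.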

Other observations

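Genes that feed OXPHOS or share its fuel were not uniform. Of 13 citric acid cycle genes 4 (30.8%) rose and 0 fell at 24 h, against 21.2% and 21.3% of all genes. At 12 h 4 (30.8%) rose and 2 (15.4%) fell, against 15.8% and 16.4%. Of genes with at least 10 CPM, 27.9% rose and 27.0% fell at 24 h, and 21.0% and 21.4% at 12 h. SUCLG2, a subunit of succinyl-CoA ligase, had 73.4 and 76.4 CPM with anti-M8nAb at 24 h, against 61.0 and 54.0 CPM with IgG (log2 fold change 0.38, SE 0.074, adjusted p = 3.57e-05), and MDH2 rose at both times (0.20 and 0.17), whereas CS, citrate synthase, fell at 12 h (-0.14, adjusted p = 0.0353). Among 22 genes of glycolysis and its transporters 8 (36.4%) rose and 5 (22.7%) fell at 24 h, against 21.2% and 21.3% of all genes. The glucose transporter SLC2A3 rose by 0.52 at 12 h and 0.81 at 24 h, and the phosphofructokinase PFKP fell at both times (-1.12 and -0.96).

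Of the 78 genes of mitochondrial ribosomal proteins 20 (25.6%) rose and 8 (10.3%) fell at 12 h, against 15.8% and 16.4% of all genes. At 24 h 15 (19.2%) rose and 18 (23.1%) fell, against 21.2% and 21.3% of all genes, with MRPS16 (-0.80) and MRPS33 (0.64) at the ends. Of genes with at least 10 CPM, 27.9% rose and 27.0% fell at 24 h, and 21.0% and 21.4% at 12 h. Of 11 mitochondrial chaperones and proteases 1 (9.09%) rose and 3 (27.3%) fell at 24 h, against 21.2% and 21.3% of all genes. AFG3L2, a protease of the inner membrane, rose at both times (0.43 and 0.50). HTRA2 and TRAP1 were called lower at both times, and HSPE1 at 24 h. Of 10 subunits and isoforms outside the choice of members 5 were tested, and UQCRHL, a copy of UQCRH, rose at 12 h (0.57, adjusted p = 0.00715) and NDUFAB1 at 24 h (0.19, adjusted p = 0.0295).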
